A study of Mus musculus with 24 samples.

Results

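The cytosolic ribosomal protein genes encode the proteins of the ribosome that works outside the mitochondria, and 85 of the 49315 genes in the count table belonged to the set described here. Members were taken by name, as genes with an Rps, Rpl, Rplp or Rpsa symbol that is not marked as a pseudogene, and with at least 10 counts in at least 6 libraries. The names of 90 genes matched, and 5 of them (Rps12l1, Rpl6l, Rps3a3, Rpl10l and Rpl39l) had too few counts to enter. Proteins of the small subunit were encoded by 34 members and those of the large subunit by 51. The rule takes in close copies of ribosomal protein genes (Rpl3l, Rpl7l1, Rpl22l1, Rpl36al, Rps4l, Rps27l, Rps3a2 and Rpl32l) and leaves out genes for ribosomal proteins whose symbols differ, of which Fau and Rack1 are given separately below. The libraries came from mouse liver in 4 groups of 6. Tumour-bearing livers (tumour livers below) were from mice transduced with AKT and YAP1 by a transposon, which gives cholangiocarcinoma, a bile duct cancer, and control livers had an empty transduction and bore no tumour. Both conditions were studied in wild-type mice, whose control tissue is labelled healthy (healthy or wild-type controls), and in Mdr2-/- mice, in which Abcb4 (Mdr2) is deleted, the transporter that brings phospholipid into bile. The age, sex and strain of the mice and the promoters of the transgenes are not given in the labels used here. All libraries are of whole liver tissue, so fewer cells of a type and less RNA per cell cannot be told apart. Whether libraries came from separate animals is not stated. The p-values weigh a difference against the spread among these libraries, and may be too small as statements about mice.

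In each ribosome the small subunit reads the messenger RNA and the large subunit joins the amino acids, and nearly every ribosomal protein is present once per particle. The messenger RNAs of ribosomal proteins begin with a terminal oligopyrimidine (TOP) tract, a run of C and T in the gene, through which the kinase mTORC1 and the RNA-binding protein LARP1 control how strongly they are translated. Proteins made in excess of ribosomal RNA are degraded, and RPL5 and RPL11, when bound to 5S ribosomal RNA outside the ribosome, block MDM2 and so raise p53.

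Sequences around the transcription start are shown for 8 members because they stand at opposite ends of the pattern described below: Rps27, Rpl11, Rps18 and Rps23 had lower levels in Mdr2-/- controls, and Rps6, Rpl4, Rpl6 and Rps4x lay at the other end. Each runs from 30 bases before to 30 bases after the RefSeq start, 5′ to 3′ on the strand of the gene, in GRCm38.p6, which is not the build of the counts. Capitals mark runs of at least 8 C or T that hold at least 1 C, cut at the ends of the window.
Rps27 (chr3:90213619-90213678, minus strand): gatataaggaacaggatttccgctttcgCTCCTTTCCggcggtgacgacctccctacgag
Rpl11 (chr4:136053364-136053423, minus strand): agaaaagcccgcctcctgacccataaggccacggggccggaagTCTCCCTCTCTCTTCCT
Rps18 (chr17:33955636-33955695, minus strand): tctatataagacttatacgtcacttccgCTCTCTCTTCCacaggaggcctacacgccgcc
Rps23 (chr13:90923092-90923151, plus strand): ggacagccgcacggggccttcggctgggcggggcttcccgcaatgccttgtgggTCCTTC
Rps6 (chr4:86857338-86857397, minus strand): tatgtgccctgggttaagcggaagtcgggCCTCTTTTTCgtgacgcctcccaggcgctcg
Rpl4 (chr9:64173357-64173416, plus strand): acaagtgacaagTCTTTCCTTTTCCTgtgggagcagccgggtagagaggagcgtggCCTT
Rpl6 (chr5:121204471-121204530, plus strand): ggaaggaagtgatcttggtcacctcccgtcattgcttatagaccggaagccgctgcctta
Rps4x (chrX:102189362-102189421, minus strand): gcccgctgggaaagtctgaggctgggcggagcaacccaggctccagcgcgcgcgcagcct
Such runs appear in 6 of these windows, from both ends of the pattern, and Rpl6 and Rps4x show none here. The window of Rpl41, also lower in Mdr2-/- controls and not shown, holds none either, so these windows do not divide the ends.

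Promoters of 63 members were found in the RefSeq table by symbol. A run of at least 8 C or T that holds a C, on the strand of the gene and from 25 bases before to 50 bases after the start, was present in 79.4% of them and in 30.2% of all 27025 genes in the table. It was present in 16 of the 18 matched members that were lower in Mdr2-/- controls, in 1 of the 2 that were higher and in 33 of the 43 that were not called. The ETS motif CCGGAAG, searched on both strands over 250 bases before to 50 after the start, was found in 39.7% of members and 9.93% of genes. The SP1 motif GGGCGG was found in 61.9% of members against 38.2% of genes, the YY1 motif AAGATGGCG in 6.35% against 1.64%, and the TATA motif TATAAA in 12.7% against 15.7%. CCGGAAG and AAGATGGCG can overlap where one ends and the other begins. A match describes letters in the window and is no evidence of binding.

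The total count per library was 20976459 to 30288385. Levels are given as CPM, counts per 1000000 after TMM scaling, which sets each library against the bulk of genes that move little. The TMM factor was 0.775 to 0.865 in wild-type controls, 0.923 to 1.19 in wild-type tumour livers, 0.967 to 1.06 in controls and 1.03 to 1.39 in tumour livers of Mdr2-/- mice. Abcb4, the targeted gene, had 244 to 377 CPM in controls and 165 to 361 CPM in tumour livers of wild-type mice, against 23.8 to 41.6 CPM in controls and 21.7 to 59.3 CPM in tumour livers of Mdr2-/- mice, so every library carried the level of its labelled genotype. Of 12 duct cell markers, 8 rose with tumour in Mdr2-/- livers and 10 in wild-type livers, while 5 and 4 of 9 hepatocyte markers fell, and no marker of the 7 cell types examined was at 0 in all libraries. Library 6 of the wild-type tumour livers and library 1 of the Mdr2-/- tumour livers stood apart from their groups in earlier results of these data, and counts that rest on them are given without them too.

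The set took up a larger mean share of all counts in tumour livers than in controls of the same genotype, with groups that overlapped. Its share was 0.998 to 1.63% in wild-type controls (1.30 ± 0.222, SD, n = 6) and 0.985 to 2.02% in wild-type tumour livers (1.64 ± 0.353). In Mdr2-/- livers it was 0.884 to 1.69% in controls (1.32 ± 0.323) and 1.45 to 2.13% in tumour livers (1.82 ± 0.296). The lowest wild-type tumour library, library 6, lay below all 6 wild-type controls, and the other 5 lay between 1.63 and 2.02%. As a share of the TPM sum, in which counts are first divided by gene length, the group means were 1.84, 2.32, 2.02 and 2.61% in the same order. After TMM scaling the summed level was 15867 ± 2656 CPM in controls and 16256 ± 3182 CPM in tumour livers of wild-type mice, against 13024 ± 3159 CPM in controls and 15284 ± 2962 CPM in tumour livers of Mdr2-/- mice. On that scale the Mdr2-/- controls had the lowest mean, and all 4 groups overlapped.

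**Figure D1:**
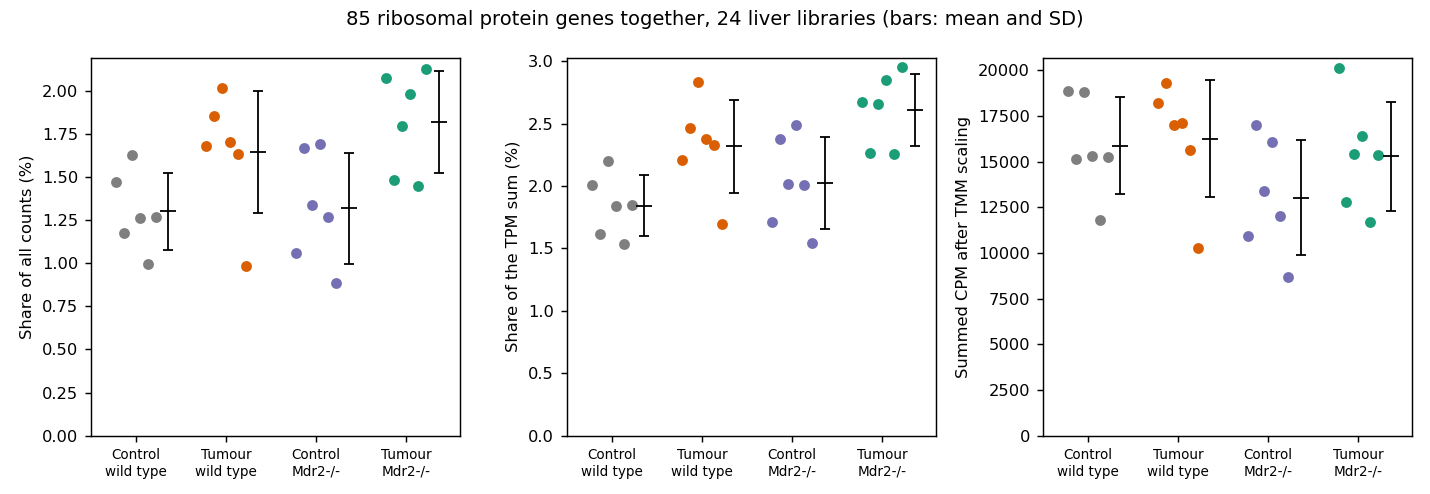
The summed level of the 85 ribosomal protein genes in each library by group, as percent of all counts (left), percent of the TPM sum (middle) and CPM after TMM scaling (right), with mean and SD beside the points. Tumour-bearing groups have the higher means on the left and in the middle, and the groups overlap in every panel.

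Which members counted as changed depended on the scaling, and the tests were therefore run under several. A call means an adjusted p under 0.05 in edgeR's quasi-likelihood test, with Benjamini-Hochberg adjustment over 17216 genes, and fold changes are log2 values with their standard error. With TMM scaling, 9 of 85 members were higher with tumour in Mdr2-/- livers, where 17.9% of all genes tested were called higher, and 5 were lower, where 17.0% were. In wild-type livers 0 members were higher and 0 lower with tumour, against 16.9% and 11.5% of all genes, with 1 member at an unadjusted p under 0.05 and 0 calls in DESeq2. Between control livers, 3 members were higher and 24 lower in Mdr2-/- livers, against 26.2% and 24.3% of all genes. Between tumour livers 0 members were called in either direction by edgeR, against 7.13% higher and 4.0% lower among all genes, with 7 members at an unadjusted p under 0.05 and 3 lower in DESeq2. The median fold change of the members was 0.12, 0.04, -0.15 and -0.12 in these 4 comparisons, beside 0.04, 0.03, 0.03 and -0.02 for all genes tested.

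With total counts as the scale, in place of TMM, the same libraries gave many calls in the upward direction. With tumour 32 members were then higher in Mdr2-/- livers and 26 in wild-type livers, and 0 were lower in both, where 32.3% and 33.6% of all genes were called higher and 5.37% and 3.5% lower. Between control livers 20 members were higher in Mdr2-/- livers and 6 lower, where 42.1% and 13.5% of all genes were. The median of all genes itself was 0.28, 0.33 and 0.33 on this scale, and that of the members was 0.36, 0.34 and 0.15. Relative to all genes, the members therefore stood at 0.07, 0.02 and -0.18, against 0.08, 0.01 and -0.18 with TMM scaling. The direction of 18 members in Mdr2-/- tumour, 34 in wild-type tumour and 24 in the genotype comparison of controls differed between the 2 scales. Between tumour livers 0 members were called on total counts, where 15.5% of all genes were higher and 1.5% lower, and the direction of 53 members differed from that with TMM scaling.

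The set itself was then used as reference, so that a call means a change relative to the other members. In Mdr2-/- tumour 12 members were called higher and 9 lower, where 9.87% and 11.9% of all genes were. In wild-type tumour 1 was higher, Rps26, and 2 lower, Rpl36 (-0.39) and Rpl27a (-0.34), where 11.2% and 6.65% of all genes were. Between controls 15 were higher and 18 lower in Mdr2-/- livers, where 30.6% and 13.1% of all genes were. Between tumour livers 0 were called, where 6.05% and 1.12% of all genes were, with 1 member at an unadjusted p under 0.05. The difference of tumour effects was called positive for 4 members and negative for 2, where 6.87% and 7.47% of all genes were. The 9 members called higher in Mdr2-/- tumour with TMM scaling were also called higher on total counts and with the set as reference, and none of the 5 called lower was called on total counts. Of the 24 members lower in Mdr2-/- controls, 6 were called lower on all 3 scales (Rps14, Rps23, Rps27, Rpl11, Rpl35a and Rpl32l), and all 3 members called higher were called on all of them (Rps4x, Rpl29 and Rpl6). On total counts the median of all genes was 0.28 in Mdr2-/- tumour and 0.33 between controls. Rises are therefore kept and falls lost more easily on that scale, so calls kept or lost there do not weigh rises against falls.

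**Figure D2:**
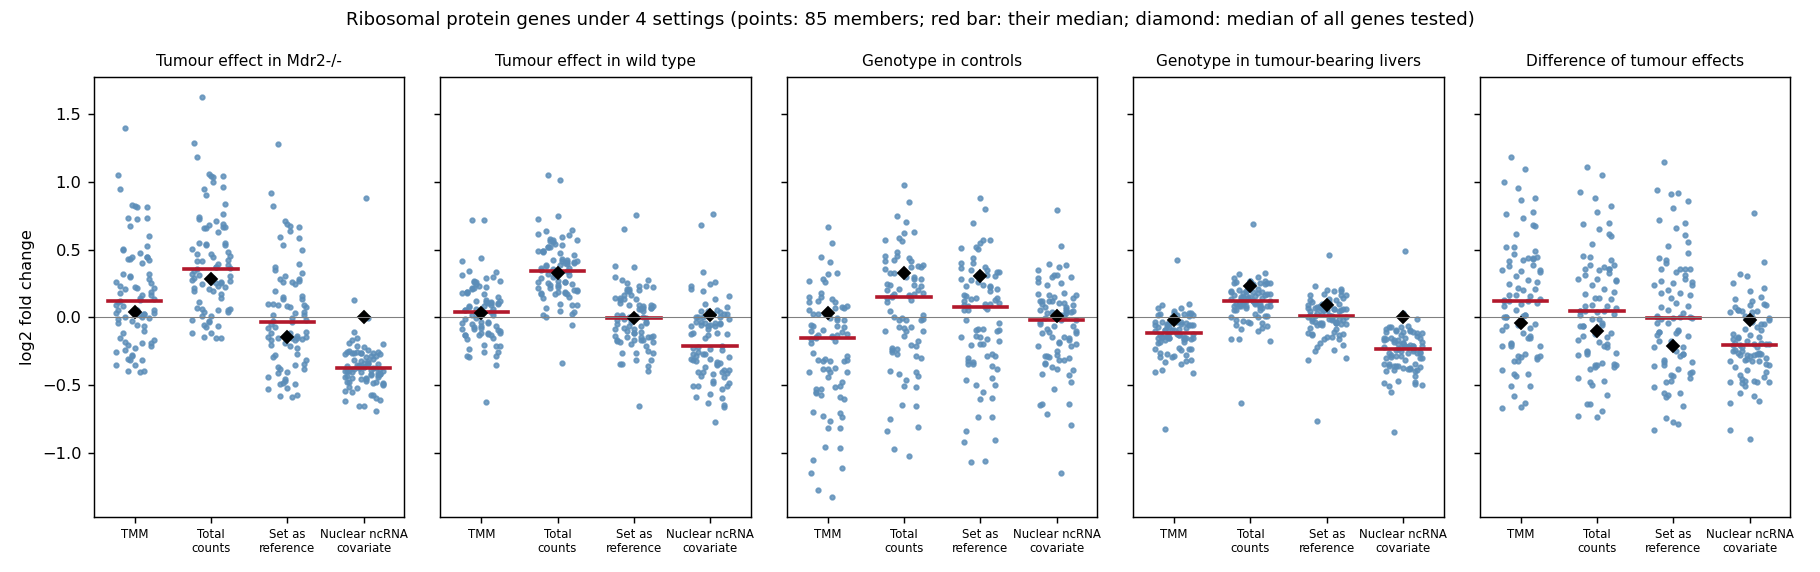
Log2 fold changes of the 85 members (points) in 5 comparisons under 4 settings, with the median of the members (red bar) and of all genes tested (black diamond). In Mdr2-/- tumour the median of the members is 0.12 with TMM scaling and 0.36 with total counts, and that of all genes is 0.04 and 0.28.

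In livers without tumour, Mdr2 loss went with lower levels of a group of members led by Rps14, Rps27, Rps23 and Rpl11 and higher levels of Rps4x, Rpl29 and Rpl6. Rps14, a small-subunit protein near the decoding platform, had 237, 712 and 883 CPM as lowest, median and highest value in wild-type controls and 131, 242 and 425 CPM in Mdr2-/- controls. Wild-type control library 5 lay at the low end and inside the range of the Mdr2-/- controls, and the other 5 lay above all of them. The fold change was -1.28 ± 0.36 (adjusted p = 0.00476). Rps27, a zinc-finger protein of the small subunit, had 192, 506 and 653 CPM against 114, 200 and 303 CPM, a change of -1.15 ± 0.31 (adjusted p = 0.00363). Rps23, which lies at the decoding centre, had 88.1, 161 and 215 CPM against 39.4, 71.2 and 108 CPM, a change of -1.11 ± 0.24 (adjusted p = 0.00062). In both genes the ranges of the 2 groups overlapped, and the median of the wild-type controls lay above every Mdr2-/- control.

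Among large-subunit members, Rpl11 changed by -1.05 ± 0.28 (adjusted p = 0.00342), Rpl35a by -0.96 ± 0.24 (adjusted p = 0.0017) and Rpl5 by -0.96 ± 0.29 (adjusted p = 0.00888) between the control groups. Rpl32l, a copy with at most 22 counts in any library, was the one member with every Mdr2-/- control below every wild-type control (-1.32 ± 0.36, adjusted p = 0.00364), where 10.6% of all genes showed this. In all, 8 of 34 small-subunit members and 16 of 51 large-subunit members were lower, and 1 and 2 were higher, beside 24.3% lower and 26.2% higher among all genes. Rps4x, the X-linked form of a small-subunit protein, rose from 89.0, 138 and 165 CPM to 173, 200 and 223 CPM, with every Mdr2-/- control above every wild-type control (0.55 ± 0.14, adjusted p = 0.00302). No other member showed that separation upward, which 13.7% of all genes showed. Rpl29, a heparin-binding protein of the large subunit, changed by 0.44 ± 0.14 (adjusted p = 0.0114), from a median of 22.6 to one of 30.5 CPM. Rpl6 changed by 0.32 ± 0.13 (adjusted p = 0.0456) and lost its call in 9 of the 24 fits that left out 1 library. Leaving out Mdr2-/- control library 1 or 6, or wild-type control library 1 or 3, left 14 members called lower, and over all such fits the number ranged from 14 to 30. Without the 2 libraries that stood apart 3 members were higher and 30 lower, where 28.3% and 25.4% of all genes were. Members called higher were 5 without Mdr2-/- control library 1 or 6, Mdr2-/- tumour library 5, wild-type tumour library 1 or wild-type control library 4, and 6 without wild-type control library 5.

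**Figure D3:**
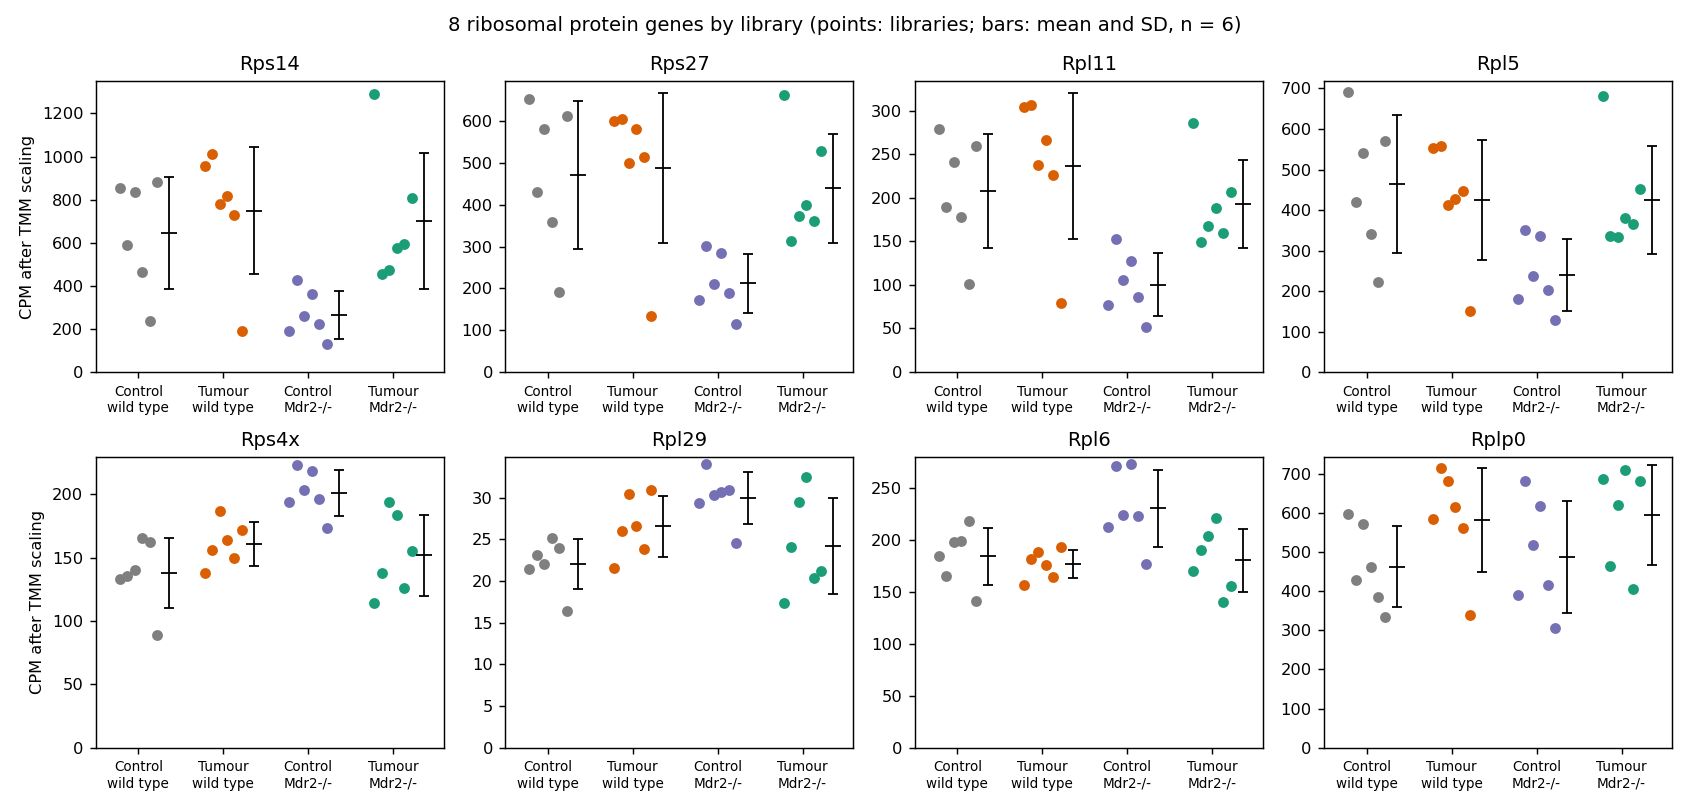
CPM after TMM scaling in each library for 8 members, with mean and SD (n = 6). Mdr2-/- controls have the lowest median for Rps14 (242 CPM), Rps27, Rpl11 and Rpl5 and the highest for Rps4x (200 CPM), Rpl29 and Rpl6, and Rplp0 overlaps in all groups.

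In Mdr2-/- livers, tumour-bearing tissue had higher Rps14, Rps27, Rpl11, Rpl5, Rpl17, Rps18, Rps7, Rpl41 and Rpl39 and lower Rps4x, Rpl4, Rps6, Rpl6 and Rpl30 than controls. Rps14 rose from a median of 242 to one of 587 CPM, with 456 CPM as the lowest and 1292 CPM as the highest tumour library (1.40 ± 0.36, adjusted p = 0.00544). Rps27 rose from 200 to 387 CPM in median, with 314 to 662 CPM in tumour livers (1.05 ± 0.31, adjusted p = 0.0127). Every tumour library lay above every control library for these 2 members and for no other, where 7.38% of all genes showed such separation, and no member was lower throughout, where 7.62% were. Rpl11 changed by 0.95 ± 0.28 (adjusted p = 0.0134) and Rpl5 by 0.83 ± 0.29 (adjusted p = 0.0311). Rpl17, a protein at the exit of the peptide tunnel, changed by 0.82 ± 0.29 (adjusted p = 0.0332). Of the members that fell, Rps4x changed by -0.41 ± 0.14 (adjusted p = 0.0315), with 114 to 194 CPM in tumour livers and 173 to 223 CPM in controls. Rpl4 changed by -0.40 ± 0.12 (adjusted p = 0.0154) and Rps6, the substrate of the S6 kinases, by -0.40 ± 0.14 (adjusted p = 0.0305). Rps4x and Rpl4 overlapped between the groups, with tumour library 1 the lowest for both.

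This comparison and the one between control livers share the 6 Mdr2-/- control libraries, so opposite signs in them are not independent. Rps14, Rps27, Rps18, Rpl5, Rpl11, Rpl17, Rpl39 and Rpl41 were called lower in Mdr2-/- controls than in wild-type controls and higher in Mdr2-/- tumour than in Mdr2-/- controls, and Rps4x and Rpl6 were called the opposite way in both. Without the 2 libraries that stood apart, 5 members were called higher in Mdr2-/- tumour and 2 lower, where 17.5% and 17.1% of all genes were. In that fit Rps14 had a change of 1.13 (adjusted p = 0.0046), Rps27 one of 0.89 (adjusted p = 0.0084) and Rpl11 one of 0.80 (adjusted p = 0.0104). Leaving out 1 library at a time gave 3 to 17 members called higher and 2 to 10 lower. Higher calls were 3 without Mdr2-/- tumour library 1 or 6 or Mdr2-/- control library 1, 5 or 6, and 5 without Mdr2-/- tumour library 4 or Mdr2-/- control library 3. They were 14 and 17 without Mdr2-/- control libraries 4 and 2, and 16 without wild-type tumour library 6. Lower calls were 2 without Mdr2-/- tumour library 1, 2, 5 or 6 or Mdr2-/- control library 4, 3 without Mdr2-/- control library 3 and 10 without wild-type control library 6.

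In wild-type livers no member passed the test with TMM scaling. Rps14 had 237, 712 and 883 CPM in controls and 188, 799 and 1013 CPM in tumour livers (0.21 ± 0.35, adjusted p = 0.688), and the lowest tumour value was that of library 6. Rps26, a member named here after its value was seen, had the smallest p of all members, with a change of 0.42 ± 0.17 (adjusted p = 0.0724), and was called on total counts (0.72, adjusted p = 0.00303) and with the set as reference (0.38, adjusted p = 0.0416). Without wild-type tumour library 6, without wild-type control library 3, or without the 2 libraries that stood apart, 1 member was called higher, where 17.2% of all genes were in the last of these fits.

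Mdr2-/- and wild-type tumour livers, compared directly, gave 0 calls in edgeR with TMM scaling, as given above with the unadjusted and DESeq2 counts, and Rps14 had a median of 587 CPM in the former and 799 CPM in the latter. Without the 2 libraries that stood apart 2 members were lower in Mdr2-/- tumour livers, where 6.2% of all genes were, and 0 higher, where 9.32% were. In that fit 82 of the 85 members had a negative fold change, with a median of -0.24. No member separated the groups completely in this comparison, where 2.3% of all genes were higher and 1.39% lower throughout, nor in wild-type tumour, where 7.27% and 3.49% were.

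The tumour effects of the genotypes were also tested against each other. The difference (Mdr2-/- effect minus wild-type effect) was called for 2 members, both negative, where 13.4% of all genes were called in that direction, and for 0 in the positive direction, where 11.9% were. Rps4x had a tumour effect of -0.41 in Mdr2-/- and 0.23 in wild-type livers, a difference of -0.63 ± 0.20 (adjusted p = 0.0254). Rpl29 had effects of -0.31 and 0.27, a difference of -0.58 ± 0.20 (adjusted p = 0.0348). Neither call held without the 2 libraries that stood apart (adjusted p = 0.0649 and 0.0984). In that fit 0 members were called, where 7.74% of all genes were positive and 9.08% negative, and 7 members had an unadjusted p under 0.05. For Rps14 the difference was 1.18 ± 0.50 (adjusted p = 0.0798) and for Rps23 0.88 ± 0.34 (adjusted p = 0.0576), and neither passed. Both passed with the set as reference (adjusted p = 0.0463 and 0.0244), while Rps4x and Rpl29 then did not (adjusted p = 0.0564 and 0.0757). Leaving out 1 library gave 0 to 4 positive calls, the highest without wild-type control library 5, and 1 to 5 negative calls, the highest without Mdr2-/- tumour library 3 or 4 or Mdr2-/- control library 6.

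Levels of members relative to each other, which no scaling of libraries can move, ran between the same 2 ends. For this the log2 CPM of each of the 81 members with a mean of at least 10 CPM was taken relative to the mean of the set in the same library. A single axis held 75.5% of the variation among the 24 libraries on this scale and the next held 8.27%. The members with the largest weight at one end were Rps14, Rps27, Rpl11, Rpl9, Rpl5, Rps18 and Rpl17, and those at the other end were Rps4x, Rpl29, Rpl4, Rpl6, Rpl14, Rps6 and Rps3a1. The score on the axis ran from -3.82 to -1.13 in Mdr2-/- controls and from -0.53 to 3.45 in Mdr2-/- tumour livers, without overlap. It ran from -2.19 to 3.31 in wild-type controls, with library 5 at -2.19, library 4 at -0.27 and the others at 0.76 or above. In wild-type tumour livers it was -3.46 in library 6, which stood apart, and 0.71 to 2.18 in all the others. The axis was found in these libraries, so its separation of groups is a description and was given no test.

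**Figure D4:**
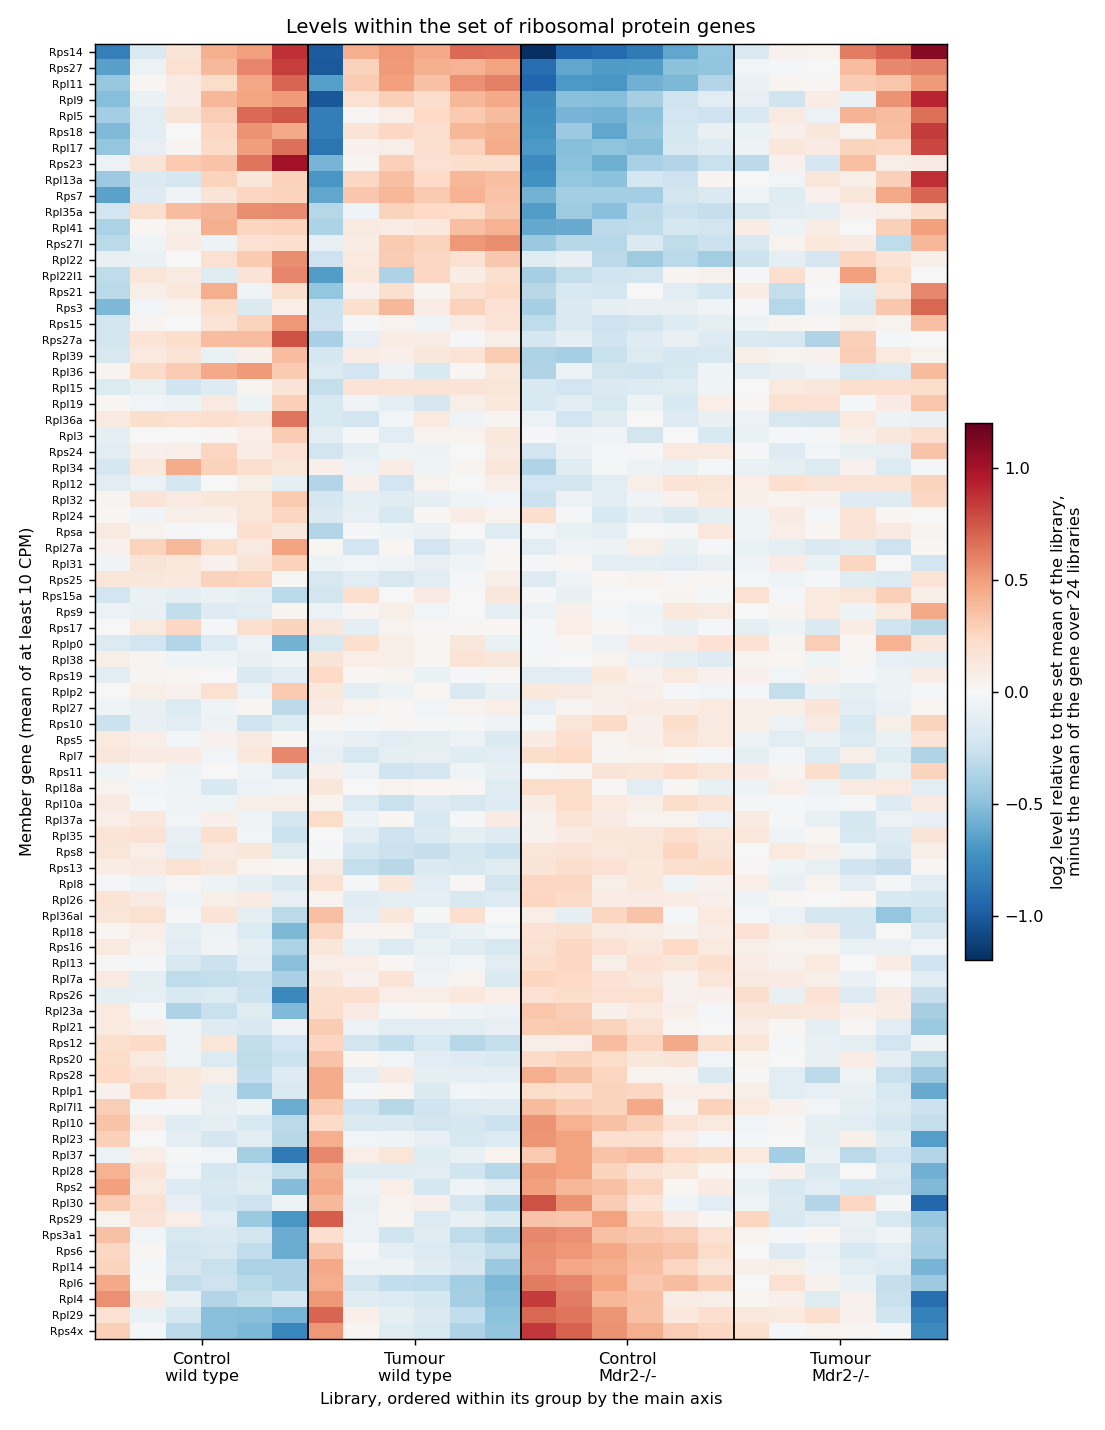
Level of 81 members (rows, ordered by weight on the main axis) in 24 libraries (columns, by group), as log2 relative to the mean of the set in that library and centred per gene. All 6 Mdr2-/- controls are low at the Rps14 end and high at the Rps4x end, as are wild-type tumour library 6 and wild-type control library 5.

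Ratios of counts within a library need neither scaling nor a reference set. The members paired here were taken from opposite ends of that axis, which was found in these same libraries. The ratios therefore describe the contrast between its ends, and their separation of groups is no further support for it. Rps14 had 5.15 ± 2.99 counts per count of Rps4x in controls and 4.76 ± 2.08 in tumour livers of wild-type mice, 1.29 ± 0.429 in controls and 5.03 ± 3.26 in tumour livers of Mdr2-/- mice. Every Mdr2-/- control, at 0.755 to 1.91, lay below every Mdr2-/- tumour library, at 2.43 to 11.3, and 1 library in each wild-type group fell inside the range of the Mdr2-/- controls. Rps27 per count of Rps6 was 0.644 to 1.11 in controls and 1.75 to 3.63 in tumour livers of Mdr2-/- mice, also without overlap. The SD within groups relative to the set was 0.06 (log2) for Rpl38 and 0.52 for Rps14, the lowest and highest of the 81.

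The share of nuclear non-coding RNA also differed between libraries, and its values are given beside the axis. Xist, Rmrp, Malat1, Gm26917, Neat1, Rpph1 and Rn7sk together took 1.74 to 4.29% of counts in controls and 4.60 to 7.95% in tumour livers of Mdr2-/- mice, and 2.91 to 5.42% in controls and 2.30 to 6.51% in tumour livers of wild-type mice. Wild-type tumour library 6, at 2.30%, was the lowest of its group on both measures, and wild-type control library 5, at 2.91%, was the lowest of its group on both as well. The share rests mostly on Rn7sk, Gm26917 and Rpph1, with means of 20585, 15970 and 9641 CPM in wild-type controls, against 1929 CPM for Malat1. Of these 7 RNAs, 6 were lower in Mdr2-/- controls than in wild-type controls, among them Malat1 (-1.25 ± 0.25, adjusted p = 0.000216). In Mdr2-/- tumour 4 were higher than in Mdr2-/- controls. The 7 did not move together in wild-type tumour, where 1 was lower, Neat1 (-0.80 ± 0.25, adjusted p = 0.0166), and 0 higher. Gm26917 was at 0.58 ± 0.23 there (adjusted p = 0.0564). With the share as a covariate in the edgeR model, 0 members were called higher in Mdr2-/- tumour and 8 lower, where 4.05% and 1.53% of all genes were. In that fit Rps14 had a tumour effect of -0.11 (adjusted p = 0.843) and Rpl11 one of -0.19 (adjusted p = 0.621). Between the control groups 4 members were higher and 16 lower, where 24.9% and 22.2% of all genes were, with Rps14 at -0.71 (adjusted p = 0.0017), Rps23 at -0.80 (adjusted p = 0.0002) and Rps4x at 0.52 (adjusted p = 0.0045). In wild-type tumour 30 members were called lower in that fit, where 18.5% of all genes were, and 0 higher, where 21.6% were. Between tumour livers 14 members were lower and 0 higher, where 6.69% and 8.74% of all genes were, and the difference was called for 3 members, all negative, where 9.09% were negative and 6.49% positive. The share differs between the groups, so its part and that of the groups cannot be told apart. RNAs encoded by mitochondria made up 7.57% (controls) and 5.45% (tumour) of the counts of wild-type livers and 4.34% and 3.82% of those of Mdr2-/- livers, and their part was not tested.

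**Figure D5:**
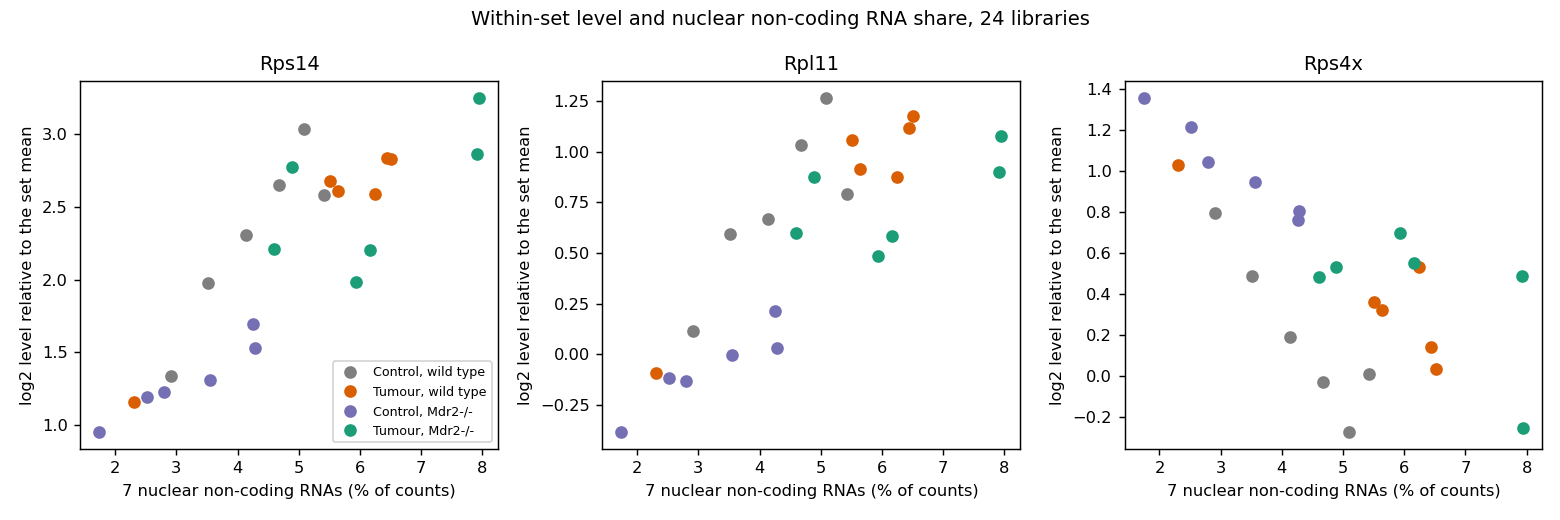
Level relative to the set of Rps14, Rpl11 and Rps4x (log2, vertical axes) against the percent of counts in 7 nuclear non-coding RNAs (horizontal axes) in 24 libraries, coloured by group. Wild-type tumour library 6, at a share of 2.30%, lies among the Mdr2-/- controls for all 3 genes, with Rps14 at 1.16 where the controls span 0.95 to 1.69.

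Members with a role outside translation were examined next. Rpl5 and Rpl11, which join 5S ribosomal RNA before they enter the large subunit, were both lower in Mdr2-/- than in wild-type controls and both higher in Mdr2-/- tumour, with the values given above. Rpl5 had 223, 481 and 690 CPM in healthy controls, 150, 436 and 558 CPM in wild-type tumour livers, 128, 220 and 351 CPM in controls and 333, 373 and 681 CPM in tumour livers of Mdr2-/- mice. The Mdr2-/- controls had the lowest median, and the highest of them lay above the lowest Mdr2-/- tumour library. Rpl13a, a part of the complex that silences inflammatory messenger RNAs, had a Mdr2-/- tumour effect of 0.73 ± 0.30 (adjusted p = 0.0562) and did not pass. Rps27a, which is made as a fusion with ubiquitin, was lower in Mdr2-/- than in wild-type controls (-0.70 ± 0.20, adjusted p = 0.00602), and Rpsa, also known as the laminin receptor, was not called (-0.32 ± 0.18, adjusted p = 0.144).

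The stalk of the large subunit, where elongation factors bind, is built from Rplp0, Rplp1 and Rplp2, and none of the 3 was called in any of the 5 tests with TMM scaling. On total counts 2 were higher in wild-type tumour and 1 in Mdr2-/- tumour, where 33.6% and 32.3% of all genes were. With the nuclear RNA share as covariate 1 was lower in each of these comparisons, where 18.5% and 1.53% were. Between tumour livers 1 was lower in that fit, where 6.69% were. Rplp0 had 333, 445 and 598 CPM in healthy controls, 339, 599 and 714 CPM in wild-type tumour livers, 306, 467 and 682 CPM in controls and 406, 650 and 709 CPM in tumour livers of Mdr2-/- mice. The medians were higher with tumour and the ranges overlapped. Its tumour effects were 0.28 ± 0.20 in Mdr2-/- (adjusted p = 0.274) and 0.33 ± 0.20 in wild-type livers (adjusted p = 0.234). Relative to the set, Rplp0 was lowest in wild-type controls, at 1.94 in mean against 2.22 to 2.38 in the other 3 groups.

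Copies of ribosomal protein genes can replace their parents in some tissues, and 8 of them were members. Rps27l, which is also known as a target of p53, had 0.225 ± 0.0565 counts per count of Rps27 in wild-type controls, 0.319 ± 0.0288 in Mdr2-/- controls, 0.280 ± 0.0972 in wild-type tumour livers and 0.221 ± 0.0490 in Mdr2-/- tumour livers. Rps27l itself was lower in Mdr2-/- controls than in wild-type controls (-0.55 ± 0.22, adjusted p = 0.0418), as was Rps27 (-1.15 ± 0.31). The ratio was 0.287 to 0.358 in controls and 0.137 to 0.276 in tumour livers of Mdr2-/- mice, without overlap. Rpl22l1 had 0.185 to 0.238 counts per count of Rpl22 in group means, and Rpl22 itself was lower in Mdr2-/- controls (-0.71 ± 0.19, adjusted p = 0.00293). Rpl36al had 1.79 to 2.43 counts per count of Rpl36a in group means. Rpl3l, Rps4l and Rps3a2 were at means of 0.41 to 3.84 CPM in every group, and their reads can be confused with those of their parents. Of the 8 copies, Rps27l and Rpl32l were called with TMM scaling, both in the comparison of controls.

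Per length, the highest members were Rpl17 at a mean of 1051 TPM over the 24 libraries, Rps7 at 903 TPM, Rps14 at 868 TPM, Rps15 at 790 TPM and Rps27 at 788 TPM, followed by Rpl36, Rpl41, Rplp0, Rps24 and Rpl19. TPM are counts divided by gene length and scaled to the same sum in each library. The length implied by the deposited counts and TPM matched the summed exons of all annotated isoforms in GENCODE M21 within 1% for 80.7% of 10441 genes. For the members it had a median of 1659 bases, against 777.5 bases for their messenger RNAs. Rps15a, with an implied length of 6270 bases, had 30.2 TPM at 90.1 CPM, and Rpl36, with 404 bases, had 767 TPM at 153 CPM. The order by TPM thus depends on annotated length, which cancels in a fold change of 1 gene.

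Features of the genes that the rule did not use were set beside the fold changes as a description. A snoRNA gene lies within 30 members. Of these, 4 were lower and 1 higher in Mdr2-/- controls (median -0.04), against 20 and 2 of the 55 without one (median -0.31), where 24.3% of all genes were lower and 26.2% higher. Over the 82 members with a length and base composition, the fold change between controls had a Spearman correlation of 0.12 with the GC content of the messenger RNA and 0.28 with its length, against 0.35 and -0.04 over 14516 genes. These points share the same libraries. The count table also has 279 rows of named pseudogenes of 60 members, and their counts came to 1.16% of those of the members. Exons of 7 members overlap another gene on the same strand and those of 19 a gene on the other strand, and the labels do not say whether strand was kept, so reads of such pairs cannot be told apart.

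Ribosomal protein genes outside the rule were read from the same fit. Fau, which encodes RPS30 fused to a ubiquitin-like protein, was lower in Mdr2-/- than in wild-type controls (-0.51 ± 0.18, adjusted p = 0.0227). Rack1, the scaffold protein of the small subunit, had -0.11 ± 0.22 (adjusted p = 0.686) and was not called.

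Pathway lists were counted in the same fits, and their counts are read beside the shares of all genes. These were 26.2% higher and 24.3% lower between controls, 17.9% higher and 17.0% lower in Mdr2-/- tumour, and 16.9% higher and 11.5% lower in wild-type tumour. With total counts they were 42.1% and 13.5%, 32.3% and 5.37%, and 33.6% and 3.5%. With the nuclear RNA share as covariate they were 24.9% and 22.2% between controls, and 4.05% and 1.53% in Mdr2-/- tumour.

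Of 55 genes of ribosome biogenesis tested, 13 were higher and 1 lower in Mdr2-/- than in wild-type controls, and 20 were lower and 0 higher in Mdr2-/- tumour than in Mdr2-/- controls. Both comparisons share the Mdr2-/- control libraries. Nolc1, a nucleolar chaperone, changed by 0.82 ± 0.31 (adjusted p = 0.0291) between controls. Fbl, the methyltransferase fibrillarin, changed by 0.69 ± 0.18 (adjusted p = 0.00262) between controls and by -0.73 ± 0.18 (adjusted p = 0.00374) in Mdr2-/- tumour. Rrp12 changed by -0.82 ± 0.31 (adjusted p = 0.044) and Tcof1, a cofactor of ribosomal RNA synthesis, by -0.73 ± 0.24 (adjusted p = 0.0203) in Mdr2-/- tumour. In wild-type tumour 1 was higher and 1 lower. The difference of tumour effects was called lower for 7 of the 55, beside 13.4% of all genes, and higher for 0, beside 11.9%. Among the 7 was Nolc1 (-1.29 ± 0.44, adjusted p = 0.0326). The median of the list was 0.20 between controls and -0.26 in Mdr2-/- tumour, beside 0.03 and 0.04 for all genes. With total counts 36 of the list were higher and 0 lower between controls, and 3 were higher and 2 lower in Mdr2-/- tumour. With the nuclear RNA share as covariate 9 were higher and 1 lower between controls, and 0 were called in Mdr2-/- tumour. Few genes of any kind were called in Mdr2-/- tumour in that fit, 4.05% higher and 1.53% lower.

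Translation factors gave calls in both directions. Of 37 tested, 12 fell and 1 rose in Mdr2-/- tumour, led by Eif4g1, the scaffold of the cap-binding complex (-0.98 ± 0.24, adjusted p = 0.00426), and Eef2, the elongation factor that moves the ribosome (-0.93 ± 0.25, adjusted p = 0.00676). On total counts 2 were called lower and 7 higher. In wild-type tumour 4 fell and 1 rose, Eif6, which keeps the subunits apart (0.75 ± 0.13, adjusted p = 9.17e-05). Between controls 5 were higher and 9 lower in Mdr2-/- livers, among the latter Eif4g2 (-1.09 ± 0.17, adjusted p = 1.49e-05) and Eif5 (-1.04 ± 0.15, adjusted p = 5.65e-06). On total counts 17 were higher and 5 lower between controls, and 11 higher and 1 lower in wild-type tumour. Of 19 protein-coding genes outside the set that are known for TOP messenger RNAs, 1 rose and 3 fell in Mdr2-/- tumour, 2 rose in wild-type tumour, and 2 were higher and 3 lower in Mdr2-/- controls. On total counts these were 6 higher and 1 lower, 8 higher and 0 lower, and 6 higher and 1 lower. Of 7 non-coding host genes of snoRNAs, which also begin with TOP tracts, 4 were lower in Mdr2-/- controls, among them Zfas1 (-1.03 ± 0.27, adjusted p = 0.00261), Snhg6 (-1.02 ± 0.24, adjusted p = 0.00123) and Gas5 (-0.62 ± 0.15, adjusted p = 0.0014), and 2 were higher in Mdr2-/- tumour, Zfas1 (0.92 ± 0.26, adjusted p = 0.0109) and Snhg5 (0.75 ± 0.21, adjusted p = 0.0109). On total counts 2 of the 7 were lower between controls and 6 higher in Mdr2-/- tumour.

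Regulators of TOP messenger RNAs and of ribosomal protein genes were taken from the mTOR and MYC pathways. Of 35 tested, 14 were lower and 2 higher in Mdr2-/- tumour, and Larp1, the TOP-binding repressor, changed by -1.15 ± 0.32 (adjusted p = 0.00862). Eif4ebp2, which holds back cap-dependent translation, changed by -1.04 ± 0.29 (adjusted p = 0.00866). Between controls 6 were higher and 2 lower, with Rps6kb1, the S6 kinase, at -1.21 ± 0.17 (adjusted p = 5.39e-06) and Rragd, a GTPase that brings mTORC1 to the lysosome, at 3.33 ± 0.23 (adjusted p = 1.13e-10). On total counts 6 were higher and 3 lower in Mdr2-/- tumour and 19 higher and 2 lower between controls. With the nuclear RNA share as covariate 2 were higher and 0 lower in Mdr2-/- tumour, where 4.05% and 1.53% of all genes were. Of 12 p53 targets, 7 were higher and 1 lower in Mdr2-/- than in wild-type controls, and 7 were higher and 0 lower in wild-type tumour, beside 10 and 11 higher and 0 lower in both on total counts. Cdkn1a, the cell cycle inhibitor p21, changed by 2.39 ± 0.38 (adjusted p = 2.15e-05) and 2.68 ± 0.38 (adjusted p = 1.42e-05) in these. Rpl5 and Rpl11 were lower in the first with TMM scaling, and only Rpl11 on total counts. Neither was called in the second on either scale. Both comparisons share the wild-type controls. In Mdr2-/- tumour, where Rpl5 and Rpl11 were called higher on both scales, 4 targets were higher and 1 lower. On total counts 5 were higher and 0 lower there. The difference of tumour effects was called lower for 5 of the 12, beside 13.4% of all genes, and higher for 0, beside 11.9%. The messenger RNA of the 2 genes does not measure their protein outside the ribosome, and a link to the p53 targets was not tested.

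Other large protein complexes were counted in the same way. Of 78 mitochondrial ribosomal protein genes, 5 rose and 12 fell in Mdr2-/- tumour, and 13 were higher and 10 lower between controls. On total counts these were 17 and 4, and 31 and 0. Of 70 nuclear genes of the respiratory chain, 2 were higher and 32 lower in Mdr2-/- than in wild-type controls, with a median of -0.36 beside -0.15 for the ribosomal protein genes, and on total counts 13 were higher and 13 lower. Of 38 proteasome genes, 7 were higher and 6 lower between controls, and 3 rose and 6 fell in Mdr2-/- tumour, while on total counts 14 were higher and 0 lower in both. Hepatocyte markers summed to 100074 to 128663 CPM in wild-type controls, 50916 to 89898 CPM in wild-type tumour livers, 71975 to 86581 CPM in controls and 28593 to 55428 CPM in tumour livers of Mdr2-/- mice. Duct markers summed to 55.3 to 136 CPM, 188 to 1417 CPM, 71.3 to 353 CPM and 1126 to 4060 CPM in the same order. Their part in the ribosomal protein values was not tested.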

How the data were processed

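RNA of 24 liver tissues was sequenced in pairs after ribosomal RNA depletion, by a kit named for bacteria, per the labels' protocols. The authors deposited raw counts and TPM per gene, on mm39 per the submitters' processing notes, which also name DESeq2. Aligner, counter, annotation and strand setting were not given in the sources used here. Counts were tested with edgeR 4.0.16 in R 4.3.3, in 1 model of 4 group means with TMM factors and a filter at a minimum count of 10, which left 17216 genes, and p-values were adjusted by Benjamini-Hochberg. The common biological coefficient of variation was 0.2719. CPM on a log scale had 0.1 added, and deposited TPM had 1 or 0.1 added before limma 3.58.1. DESeq2 1.42.0 served as alternative. One CPM rested on 16.4 to 34.2 counts. Rows without a symbol held 0.0111 to 0.0178% of counts. The test was checked on simulated counts.

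Groups came from the labels, and library numbers follow accession order. The members and lists were chosen with earlier results of these data known. Named were, per comparison, the 5 largest rises and falls among called members with at least 5 CPM, the 10 highest by TPM, all members of the role lists, and up to 3 called genes per pathway list. Rps7, Rps18, Rpl9, Rpl14, Rpl30, Rpl32l, Rpl38, Rps3a1, Rps15a, Rps26, Snhg5, Snhg6 and other genes outside that rule were chosen after their values were seen.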

Additional observations from a re-analysis of the deposited data

Results flagged for a closer look

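Of 68 groups of 6 libraries examined for a library far from the others, 12 held one. Chance would give about 1 in 20 if these were independent, which they are not. The same 4 groups were examined again for each value, and values of members move together, so no excess over chance is shown. In wild-type tumour livers it was library 6 each time. Its share of counts in the set was 0.985%. Its level relative to the set (log2) was 1.16 for Rps14, 0.67 for Rps27, -0.094 for Rpl11, 0.83 for Rpl5, 0.83 for Rpl17, -0.58 for Rps23 and 0.37 for Rplp1, and 1.92 for Rpl4 and 1.19 for Rpl6. In Mdr2-/- tumour livers library 1 stood apart for Rps4x, at -0.25, and for Rpl4, at 0.49.

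The tumour effect differed between the genotypes in the interaction test of edgeR for Rps4x (-0.63, adjusted p = 0.0254) and Rpl29 (-0.58, adjusted p = 0.0348). Without the 2 libraries named above the adjusted p was 0.0649 for Rps4x and 0.0984 for Rpl29.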

How the results depend on the processing

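The number of members called is given here as higher and lower where it moved, with the cause not tested. In Mdr2-/- tumour (9 and 5 as reported) it was 32 and 0 with total counts, 16 and 0 with upper-quartile factors, 27 and 0 with limma on TPM at either pseudocount, 0 and 8 with the nuclear RNA share as covariate, and 5 and 2 without the 2 libraries that stood apart. Higher calls were 3 with no filter and 14 with at least 1 CPM in 6 libraries. Lower calls were 9 with DESeq2, 9 with the set as reference and 8 without mitochondrial, haemoglobin and nuclear non-coding genes. In wild-type tumour (0 and 0) higher calls were 26 with total counts, 30 and 32 with TPM plus 1 and plus 0.1, 1 and lower calls 2 with the set as reference, 4 higher with the title number as covariate, 30 lower with the nuclear RNA share and 1 higher without the 2 libraries. Between controls (3 and 24) calls were 20 and 6 with total counts, and 36 and 5 or 38 and 5 with TPM. Higher calls were 15 with the set as reference and 7 with the title number, and lower calls 15 with no filter. Between tumour-bearing livers (0 and 0) lower calls were 3 with DESeq2, 1 with its size factors in edgeR, 2 without the removed genes, 4 with the title number, 14 with the nuclear RNA share and 2 without the 2 libraries. For the difference (0 and 2) DESeq2 gave 1 and 5, the set as reference 4 higher, TPM 6 or 7 lower, the title number 8 lower, and upper-quartile factors or leaving out the 2 libraries 0 lower.

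With the nuclear RNA share as covariate the Mdr2-/- tumour effect turned to -0.11 for Rps14, -0.26 for Rps27, -0.19 for Rpl11, -0.33 for Rpl5, -0.37 for Rpl17, -0.17 for Rpl39, -0.49 for Rplp2, -0.48 for Rps7, -0.36 for Rpl41 and -0.61 for Rps24, and that in wild-type livers to -0.43 for Rps14, -0.51 for Rps27 and -0.37 for Rpl41. With TPM the genotype effect in controls turned to 0.12 for Rpl7 and 0.43 for Rplp1. As a share of the TPM sum the set was at 1.84, 2.32, 2.02 and 2.61%. Of 34 called values of named members, 6 were called under every alternative.

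Leaving out 1 library gave 3 to 17 higher and 2 to 10 lower calls in Mdr2-/- tumour, 0 to 1 and 0 in wild-type tumour, 2 to 6 and 14 to 30 between controls, 0 and 0 to 2 between tumour-bearing livers, and 0 to 4 and 1 to 5 for the difference. No paired analysis was possible because the labels give no replicate numbers. The title number splits libraries by whether the number in the sample title, whose meaning the labels do not give, is below 2000. This holds for 5 of 6 wild-type controls, 0 of 6 wild-type tumour livers, 4 of 6 Mdr2-/- controls and 3 of 6 Mdr2-/- tumour livers, so in wild-type tumour it is nearly confounded with the group, and the median of the members moved from 0.04 to 0.26 there. Depth limits Rpl32l, Rpl3l and Rps3a2, which had few counts.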
